A study of Mus musculus with 12 samples.

Results

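Cell cycle and DNA replication genes were examined as a set of 50 genes chosen by their function, 29 of DNA replication and the G1/S step and 21 of mitosis. A gene entered through the probe sets that the platform annotation maps to its symbol alone, and the probe set with the highest mean was used. This gave values for 49 of the 50 genes, 29 of replication and 20 of mitosis, out of 19938 genes in all. Ccnb1, cyclin B1, had no probe set with 1 symbol and has no value here. Only Pcna, Tk1 and Top2a had more than 1 such probe set.

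The 12 arrays, 3 in each of 4 groups, hold RNA of bone marrow derived mast cells, which are grown from marrow with stem cell factor (12.5 ng/ml) and interleukin 3 (10 ng/ml). The groups are wild type C57BL/6 cultures at 2 weeks, ACKR2-/- cultures at 2 weeks, wild type cultures at 10 weeks and ACKR2-/- cultures at 10 weeks, all from female mice aged 4 to 6 weeks. ACKR2, also called D6, is a scavenging receptor for inflammatory CC chemokines, and the design asks how its loss and the time in culture change expression. Per the labels' protocols, mast cells form a homogeneous population after 4 weeks and were for some experiments taken from 2-week cultures with a CD117 column. Each array is titled a biological replicate, but the labels leave out which animals or cultures these come from, which arrays came from such columns and what part of Ackr2 was deleted. P-values below measure the spread between these arrays. All values are log2 signals, so that a difference of 1 is a doubling, and the level of one gene cannot be set against that of another.

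A cell that leaves rest first makes the transcripts of the G1/S step under the E2F transcription factors: cyclin E, the MCM helicase and its loaders, the polymerases and the enzymes that supply nucleotides. Genes of G2 and mitosis, such as Cdk1, Plk1 and the spindle motors, follow later under FOXM1 and the MuvB complexes. In resting cells the DREAM complex keeps both sets low through E2F sites and through an element called CHR in the promoter. Stem cell factor and interleukin 3 are growth factors of mast cells and keep cultured mast cells dividing.

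The promoters are shown because replication and mitosis genes differ in these letters. RefSeq windows of GRCm38.p6, from 250 bases before to 50 bases after the transcript start, were found for 40 of the 50 genes (25 of replication, 15 of mitosis). 3 genes had more than 1 window, and the first listed was used. Both strands were searched for the E2F letters TTTCCCGC, TTTGGCGC, TTTGCCGC and TTTCGCGC, for the CHR letters TTTGAA, and for CCAAT. E2F letters stood in 10 of 25 replication promoters (Cdc6, Cdt1, E2f2, E2f7, Mcm3, Mcm5, Mcm6, Mcm7, Pola1 and Rfc3) and in 1 of 15 mitosis promoters (Cdk1), against 2.32% of all 27025 promoters. CHR letters stood in 4 of 25 replication promoters (Cdc45, E2f8, Fen1 and Mcm2) and in 10 of 15 mitosis promoters, against 18.1% of all. CCAAT stood in 16 of 25 and 13 of 15, against 37.9%, and all 10 mitosis promoters with CHR letters also held CCAAT, a pair found in 7.12% of all promoters. Matches of different motifs overlapped only in Mcm7. A match is a run of letters, not a shown binding site.

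Parts of 8 windows upstream of the start are printed 5′ to 3′ on the gene's strand, with E2F, CHR and CCAAT letters of either strand in capitals. Of the replication genes these are Mcm6 (chr1:128359710-128359820 on the minus strand), Mcm5 (chr8:75109351-75109441 on the plus strand), Cdc6 (chr11:98908005-98908029 on the plus strand) and E2f8 (chr7:48881606-48881712 on the minus strand). Of the mitosis genes they are Cdk1 (chr10:69352917-69353047 on the minus strand), Top2a (chr11:99024201-99024342 on the minus strand), Kif11 (chr19:37376332-37376374 on the plus strand) and Cdc20 (chr4:118437344-118437401 on the minus strand).
Mcm6: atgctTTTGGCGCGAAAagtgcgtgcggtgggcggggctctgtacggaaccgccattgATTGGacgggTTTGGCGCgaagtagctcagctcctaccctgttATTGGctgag
Mcm5: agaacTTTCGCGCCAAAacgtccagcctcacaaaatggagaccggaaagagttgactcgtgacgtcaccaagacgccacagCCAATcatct
Cdc6: ggtggagaGCGGGAAAtcgcctggg
E2f8: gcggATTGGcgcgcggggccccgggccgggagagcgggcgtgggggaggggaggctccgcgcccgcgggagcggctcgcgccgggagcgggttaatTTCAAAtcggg
Cdk1: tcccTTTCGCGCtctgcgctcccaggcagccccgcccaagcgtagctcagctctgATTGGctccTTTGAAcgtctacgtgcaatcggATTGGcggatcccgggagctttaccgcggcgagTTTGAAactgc
Top2a: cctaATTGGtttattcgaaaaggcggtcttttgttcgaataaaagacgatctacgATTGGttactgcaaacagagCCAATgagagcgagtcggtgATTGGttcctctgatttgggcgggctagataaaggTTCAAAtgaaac
Kif11: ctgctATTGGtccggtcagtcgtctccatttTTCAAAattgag
Cdc20: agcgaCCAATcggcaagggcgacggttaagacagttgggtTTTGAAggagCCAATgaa
Mcm6 and Mcm5 each carry E2F letters that read on both strands and overlap each other, and Mcm6 holds a further copy nearer the start. Cdk1 holds E2F letters and, nearer the start, 2 copies of the CHR letters, each preceded by CCAAT on the other strand. E2f8, which is counted with the replication genes, has CHR letters and none of the E2F letters searched, the former at 20 to 15 bases before the start, close to where Kif11 (19 to 14) and Top2a (23 to 18) have theirs. In E2f2, whose array order differed from that of the other 48 genes, the E2F letters lie 40 to 47 bases after the start. E2F letters after the start were also found in Cdt1, Mcm3, Mcm7 and Rfc3, which are among those 48.

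Before any comparison, 4 arrays went against their labels. On wild type 2-week array 3 and on all 3 ACKR2-/- 2-week arrays, 11 mast cell markers averaged 6.72 to 6.86, against 12.15 to 12.88 on the other 8 arrays. Fcer1a, the IgE receptor alpha chain, read 4.83 to 5.47 there and at least 13.74 on the other 8. On the 4 arrays 7 B cell markers averaged 9.78 to 12.81 (6.32 to 6.82 elsewhere) and 8 T and NK cell markers 8.59 to 11.01 (6.60 to 7.06 elsewhere). Xist read at most 6.23 there and at least 13 elsewhere, and the Y-linked Kdm5d at least 10.06 against at most 6.42, although the labels give female mice. Across genes, the correlation of wild type 2-week array 3 was 0.996, 0.997 and 0.964 with the ACKR2-/- 2-week arrays, and 0.89 and 0.894 with arrays 1 and 2 of its own group. Groups are named by their labels throughout, and results that rest on these arrays are given with and without wild type 2-week array 3, the only one of the 4 whose own group also holds arrays high in mast cell transcripts.

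In the wild type groups the cell cycle genes varied more between arrays than most genes did. Among the wild type arrays at 10 weeks the median standard deviation of the 49 genes was 0.87, against 0.21 over all 19938 genes, and among the ACKR2-/- arrays at 10 weeks it was 0.33 against 0.12. Over the 8 arrays high in mast cell transcripts, the 29 replication genes spanned a median range of 1.71, the 20 mitosis genes 2.18 and all genes 0.56. The range was smallest for Pcna (0.57) and largest for Cdc25c (2.92). The replication genes averaged 10.20, 9.40 and 9.02 on wild type arrays 1, 2 and 3 at 2 weeks and 10.28, 9.44 and 8.88 at 10 weeks. The mitosis genes averaged 10.70, 9.72 and 8.55 at 2 weeks and 10.72, 9.70 and 8.65 at 10 weeks. Array 1 was thus the highest and array 3 the lowest of both groups in both sets, and the span between them was wider for mitosis genes. At 2 weeks, array 3 is the wild type array low in mast cell markers, so only arrays 1 and 2 compare like arrays at both weeks. At 10 weeks this order of 3 arrays, which have no order by design, held for 48 of 49 genes, the exception being E2f2, and for 23.4% of all genes. Array 3 had the lowest value for 49 of 49 genes, against 29.6% of all genes. Fewer dividing cells and less RNA per cell cannot be told apart in such bulk samples.

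**Figure D1:**
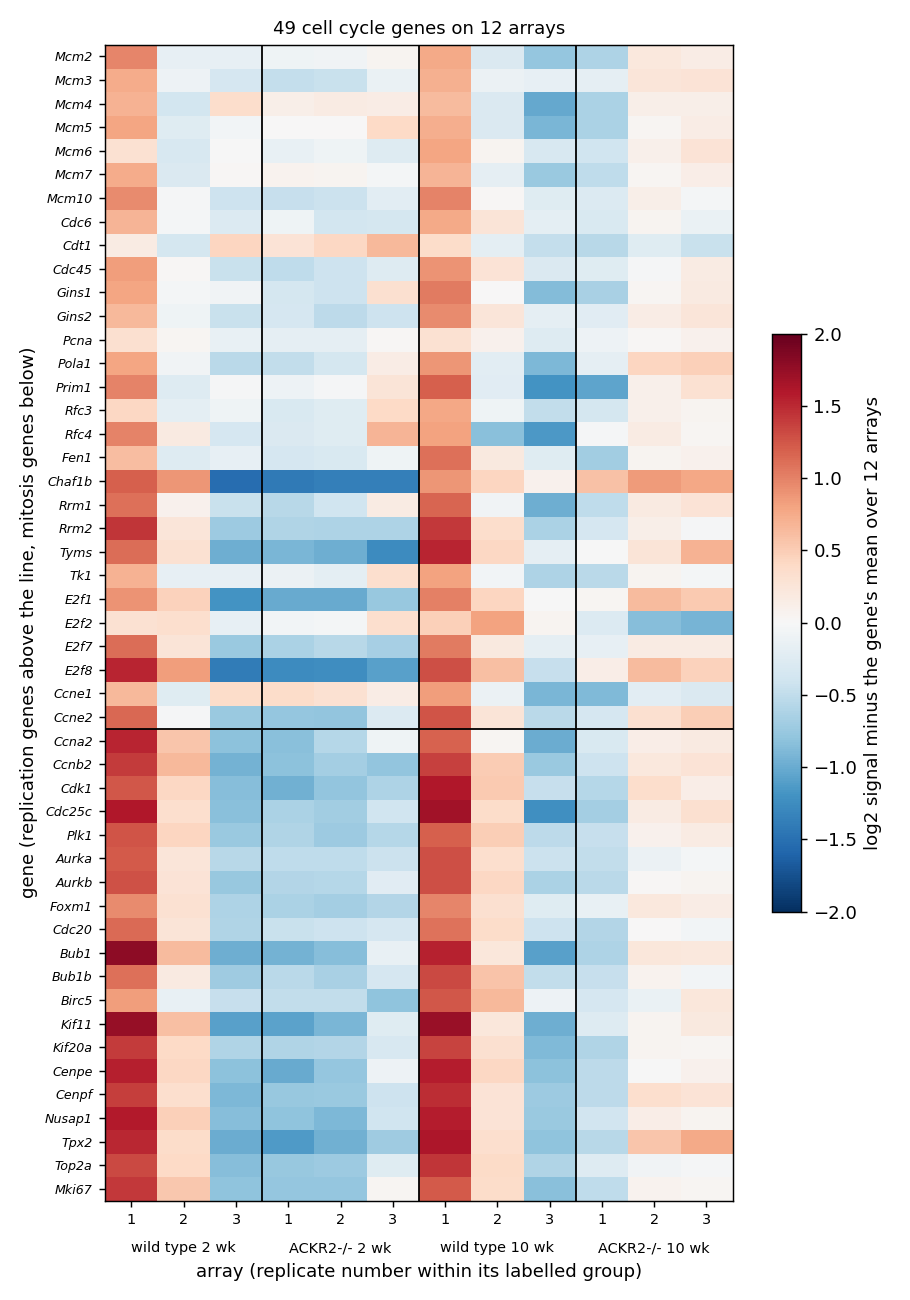
Log2 signal of each of the 49 measured genes minus its own mean over the 12 arrays, with 1 column for each array and the replication genes above the horizontal line. Wild type array 1 is red for nearly every gene at both weeks, while Chaf1b, E2f1 and E2f8 are deep blue on wild type 2-week array 3 and the ACKR2-/- 2-week arrays, and E2f2 is blue on the ACKR2-/- 10-week arrays.

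The MCM proteins form the ring-shaped helicase that is loaded onto origins and opens DNA. Mcm2 read 11.36, 10.21 and 10.22 on wild type arrays 1, 2 and 3 at 2 weeks and 11.13, 10.09 and 9.61 at 10 weeks. It read 10.29, 10.3 and 10.43 on the ACKR2-/- arrays at 2 weeks and 9.76, 10.59 and 10.53 at 10 weeks. Mcm5 read 10.53, 9.49 and 9.68 on wild type arrays 1, 2 and 3 at 2 weeks and 10.46, 9.45 and 8.82 at 10 weeks, and 9.75, 9.75 and 10.13 on the ACKR2-/- arrays at 2 weeks and 9.11, 9.78 and 9.89 at 10 weeks. Both genes were highest on wild type array 1 at each week and lowest on wild type 10-week array 3, and the ACKR2-/- 10-week arrays lay between. Cdc6 and Cdt1 load the helicase. Cdc6 read 8.83, 8.11 and 7.88 on wild type arrays 1, 2 and 3 at 2 weeks and 8.91, 8.41 and 7.95 at 10 weeks, and 8.06, 7.78 and 7.79 on the ACKR2-/- arrays at 2 weeks and 7.84, 8.21 and 8.02 at 10 weeks. Cdt1 read 9.27, 8.75 and 9.54 on wild type arrays 1, 2 and 3 at 2 weeks and 9.47, 8.92 and 8.63 at 10 weeks, and 9.39, 9.52 and 9.75 on the ACKR2-/- arrays at 2 weeks and 8.55, 8.86 and 8.66 at 10 weeks. Cdt1 differed from Cdc6 in this: its ACKR2-/- arrays were all higher at 2 weeks than at 10 weeks, and wild type 2-week array 3 lay with the former. The 12 helicase and licensing genes, Cdc45 and the GINS subunits of the active helicase among them, averaged 9.99, 9.13 and 9.18 on the wild type 2-week arrays and 10.07, 9.25 and 8.78 at 10 weeks. On average, wild type 2-week array 3 was therefore not low in them against array 2 of its group. The single genes were split, 6 above array 2 and 6 below, from -0.48 for Cdc45 to 0.78 for Cdt1.

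Pcna, the sliding clamp of the polymerases, moved least of all the genes. It read 13, 12.72 and 12.53 on wild type arrays 1, 2 and 3 at 2 weeks and 12.99, 12.76 and 12.43 at 10 weeks, and 12.5, 12.5 and 12.7 on the ACKR2-/- arrays at 2 weeks and 12.58, 12.7 and 12.77 at 10 weeks. Array 1 was still the highest of both wild type groups. Fen1, which trims Okazaki fragments, read 9.32, 8.44 and 8.54 on wild type arrays 1, 2 and 3 at 2 weeks and 9.8, 8.89 and 8.46 at 10 weeks, and 8.37, 8.4 and 8.61 on the ACKR2-/- arrays at 2 weeks and 8.01, 8.76 and 8.79 at 10 weeks. Rfc4, a subunit of the clamp loader, read 10.27, 9.45 and 8.93 on wild type arrays 1, 2 and 3 at 2 weeks and 10.08, 8.44 and 8.13 at 10 weeks, and 8.99, 9.03 and 9.95 on the ACKR2-/- arrays at 2 weeks and 9.25, 9.44 and 9.32 at 10 weeks. Its ACKR2-/- arrays were close together at 10 weeks, inside the span of the wild type arrays. Chaf1b, a subunit of the CAF-1 complex that puts histones on new DNA, read 11.38, 11.07 and 8.67 on wild type arrays 1, 2 and 3 at 2 weeks and 11.07, 10.62 and 10.28 at 10 weeks. On the ACKR2-/- arrays it read 8.78, 8.83 and 8.82 at 2 weeks and 10.78, 11.04 and 10.97 at 10 weeks. Chaf1b was low on exactly the 4 arrays that were low in mast cell markers and high on the other 8, a pattern that Pcna and Fen1 did not show.

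Among the enzymes that supply deoxynucleotides, Rrm2, the regulated subunit of ribonucleotide reductase, read 11.45, 10.26 and 9.29 on wild type arrays 1, 2 and 3 at 2 weeks and 11.43, 10.38 and 9.39 at 10 weeks, and 9.42, 9.4 and 9.41 on the ACKR2-/- arrays at 2 weeks and 9.69, 10.14 and 9.99 at 10 weeks. Tk1, thymidine kinase, read 9.61, 8.74 and 8.74 on wild type arrays 1, 2 and 3 at 2 weeks and 9.71, 8.86 and 8.3 at 10 weeks, and 8.8, 8.72 and 9.24 on the ACKR2-/- arrays at 2 weeks and 8.37, 8.97 and 8.87 at 10 weeks. Tyms, thymidylate synthase, read 11.16, 10.34 and 9.07 on wild type arrays 1, 2 and 3 at 2 weeks and 11.56, 10.46 and 9.86 at 10 weeks, and 9.13, 9.07 and 8.78 on the ACKR2-/- arrays at 2 weeks and 10.03, 10.3 and 10.74 at 10 weeks. All 3 were highest on wild type array 1. Rrm2 and Tyms were lower on each of the 4 arrays low in mast cell markers than on wild type 2-week array 2, whereas Tk1 on wild type 2-week array 3 equalled array 2.

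The transcription factors and cyclins of the G1/S step differed in their array order. E2f1, an activator, read 10.3, 9.85 and 8.2 on wild type arrays 1, 2 and 3 at 2 weeks and 10.4, 9.83 and 9.39 at 10 weeks, and 8.39, 8.38 and 8.63 on the ACKR2-/- arrays at 2 weeks and 9.43, 10.02 and 9.91 at 10 weeks. E2f8, a repressor of E2F target genes, read 11.12, 10.44 and 8.2 on wild type arrays 1, 2 and 3 at 2 weeks and 10.9, 10.2 and 9.15 at 10 weeks, and 8.34, 8.36 and 8.51 on the ACKR2-/- arrays at 2 weeks and 9.73, 10.23 and 10.06 at 10 weeks. Both were low on the 4 arrays low in mast cell markers. E2f2, the other activator here (probe set 10509168), read 9.33, 9.36 and 8.86 on wild type arrays 1, 2 and 3 at 2 weeks and 9.51, 9.84 and 9.08 at 10 weeks, and 8.98, 8.99 and 9.37 on the ACKR2-/- arrays at 2 weeks and 8.76, 8.17 and 8.1 at 10 weeks. E2f2 was the only gene of the 49 for which array 1 was not the highest wild type array at 10 weeks, and the only one for which ACKR2-/- 10-week array 1 was the highest, not the lowest, of its group. Ccne1, cyclin E1, which drives Cdk2 at the start of S phase, read 9.68, 8.79 and 9.41 on wild type arrays 1, 2 and 3 at 2 weeks and 9.88, 8.92 and 8.13 at 10 weeks, and 9.4, 9.34 and 9.18 on the ACKR2-/- arrays at 2 weeks and 8.15, 8.82 and 8.75 at 10 weeks. Like Cdt1, it was lower on all ACKR2-/- 10-week arrays than on all ACKR2-/- 2-week arrays.

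The mitotic cyclins and kinases all had wild type array 1 above array 2 above array 3 at 10 weeks. Ccna2, cyclin A2 of S and G2 phase, read 12, 11.03 and 9.65 on wild type arrays 1, 2 and 3 at 2 weeks and 11.65, 10.52 and 9.48 at 10 weeks, and 9.64, 9.9 and 10.39 on the ACKR2-/- arrays at 2 weeks and 10.17, 10.6 and 10.65 at 10 weeks. Cdk1, the kinase that starts mitosis, read 10.88, 10.05 and 8.79 on wild type arrays 1, 2 and 3 at 2 weeks and 11.23, 10.16 and 9.17 at 10 weeks, and 8.67, 8.84 and 9.02 on the ACKR2-/- arrays at 2 weeks and 9.06, 9.98 and 9.77 at 10 weeks. Plk1, a kinase of mitotic entry and spindle assembly, read 11.32, 10.48 and 9.31 on wild type arrays 1, 2 and 3 at 2 weeks and 11.25, 10.55 and 9.53 at 10 weeks, and 9.46, 9.33 and 9.49 on the ACKR2-/- arrays at 2 weeks and 9.6, 10.14 and 10.22 at 10 weeks. At both weeks each was highest on wild type array 1 and lowest on array 3 of the wild type arrays, the latter being low in mast cell markers at 2 weeks. Cdc25c, the phosphatase that activates Cdk1, read 9.07, 7.81 and 6.64 on wild type arrays 1, 2 and 3 at 2 weeks and 9.16, 7.84 and 6.24 at 10 weeks, and 6.84, 6.78 and 7.08 on the ACKR2-/- arrays at 2 weeks and 6.79, 7.63 and 7.8 at 10 weeks. The 2.92 between wild type 10-week arrays 1 and 3 was the largest range of the set over the 8 arrays high in mast cell markers. Birc5, survivin, a part of the chromosomal passenger complex with Aurora B, read 9.74, 8.75 and 8.43 on wild type arrays 1, 2 and 3 at 2 weeks and 10.14, 9.54 and 8.79 at 10 weeks, and 8.41, 8.41 and 8.1 on the ACKR2-/- arrays at 2 weeks and 8.56, 8.77 and 9.13 at 10 weeks.

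Top2a, which untangles sister chromosomes, read 11.56, 10.64 and 9.38 on wild type arrays 1, 2 and 3 at 2 weeks and 11.66, 10.62 and 9.64 at 10 weeks, and 9.47, 9.51 and 9.99 on the ACKR2-/- arrays at 2 weeks and 9.97, 10.16 and 10.21 at 10 weeks. Mki67, the Ki-67 antigen that coats mitotic chromosomes and marks dividing cells, read 11.86, 10.98 and 9.64 on wild type arrays 1, 2 and 3 at 2 weeks and 11.68, 10.82 and 9.62 at 10 weeks, and 9.68, 9.67 and 10.48 on the ACKR2-/- arrays at 2 weeks and 9.94, 10.52 and 10.49 at 10 weeks. On wild type 10-week array 3 and ACKR2-/- 10-week array 1 both were lower than on the other arrays of their groups. The spindle motors Kif11 and Kif20a, the kinetochore proteins Cenpe and Cenpf and the spindle factors Nusap1 and Tpx2 likewise had wild type array 1 above array 2 above array 3 at 10 weeks.

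Over the 8 arrays high in mast cell markers, the range from the lowest to the highest log2 signal overlapped between most roles. Among the licensing genes, the helicase subunits Mcm3, Mcm6, Mcm7 and Mcm4 had ranges of 0.93, 1.19, 1.49 and 1.71. Cdc45 and Gins2, which join the helicase when it fires, had 1.19 and 1.17, and Gins1, of the same complex as Gins2, had 1.91. Prim1 and Pola1, the primase and polymerase alpha subunits that start each DNA strand, had 2.38 and 1.79, and Rrm1, the large subunit of ribonucleotide reductase, had 2.15. Prim1 had the widest range of the 29 replication genes. Foxm1, which activates the late genes, had the narrowest range of the 20 mitosis genes at 1.22, while Bub1 of the spindle checkpoint and the motor Kif11 had 2.88 and 2.72. The 8 spindle and chromosome genes ranged over 2.03 to 2.72, each more than any of the 12 licensing genes (0.92 to 1.91).

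The difference between wild type arrays 1 and 2 recurred at the later week. Array 1 minus array 2 had a median of 0.88 over the 49 genes at 2 weeks and 0.92 at 10 weeks, against 0.01 and -0.04 over all genes. Both differences were above 0.5 for 45 of 49 genes, against 3.36% of all genes, and the 4 others were Pcna, Chaf1b, E2f1 and E2f2. Across the 49 genes the differences at 2 and 10 weeks correlated at r = 0.812 (Spearman 0.724), and across all 19938 genes at r = 0.612 (Spearman 0.418). These are descriptions of 4 arrays, and the genes on them are not independent replicates. Array 1 at 10 weeks minus array 1 at 2 weeks had a median of 0.06 and lay within 0.3 of 0 for 41 of 49 genes (77.7% of all genes). For array 2 the median was 0.03 with 37 of 49 genes within 0.3 (76.9% of all genes), Rfc4 being the lowest at -1.01 and Birc5 the highest at 0.79. For array 3 the median was 0.1, but the genes ran from -1.37 to 1.61, with 26 of 49 within 0.3 (39.2% of all genes): 16 of 20 mitosis genes and 10 of 29 replication genes. This pair sets an array low in mast cell markers against one high in them. For arrays 1 and 2 the median difference between the arrays was thus larger than that between the weeks.

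**Figure D2:**
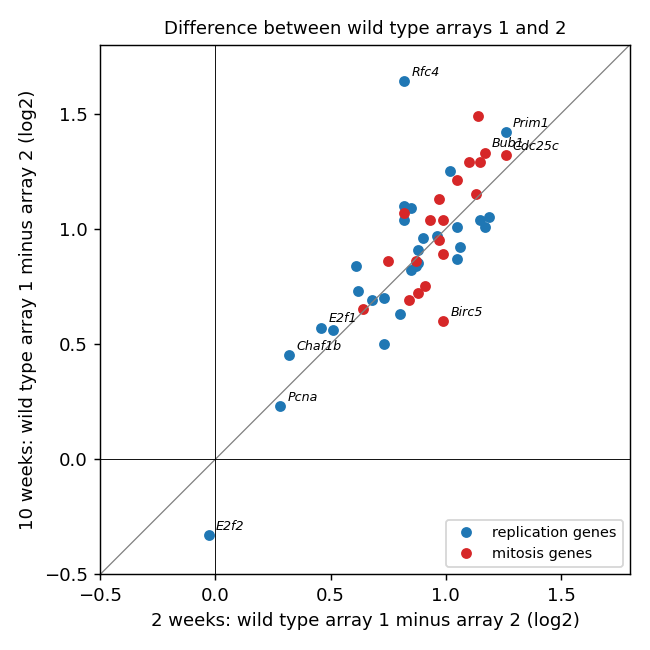
Log2 difference between wild type arrays 1 and 2 at 2 weeks (x axis) and at 10 weeks (y axis), with 1 point for each of the 49 genes and the grey diagonal marking equal differences. All points but E2f2 lie above 0 on both axes, with medians of 0.88 and 0.92.

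Some marker lists of other cells followed the order of the cell cycle genes over these arrays and others did not. At 10 weeks, 10 neutrophil markers averaged 9.13, 10.15 and 7.69 on wild type arrays 1, 2 and 3, and 8 monocyte and macrophage markers 10.31, 11.66 and 10.92, so that array 2 was the highest in both. The 5 erythroid markers had the opposite order, at 7.42, 7.70 and 7.83. The 6 eosinophil markers averaged 8.63, 8.54 and 7.67 and the 11 mast cell markers 12.88, 12.55 and 12.36, both highest on array 1 and lowest on array 3 like the cell cycle genes. Of the mast cell markers, Mcpt4, a protease of mature connective tissue mast cells, had the widest span, at 12.66, 11.21 and 9.05. Cpa3, Hdc, Mitf and Tph1 had the same order over smaller spans. Array 3 was not the lowest for Kit, Fcer1a, Ms4a2, Gata2, Tpsb2 and Cma1. The part of these cell types in the array differences was not tested.

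Replication and mitosis genes did not vary alike. The replication average minus the mitosis average was -0.50 and -0.32 on wild type 2-week arrays 1 and 2 and -0.44 and -0.26 on 10-week arrays 1 and 2. It was 0.23 on array 3 of the wild type 10-week group, while the ACKR2-/- 10-week arrays gave 0.17, 0.07 and 0.05. Array 3 of the wild type 2-week group gave 0.48, close to the ACKR2-/- 2-week arrays at 0.43, 0.39 and 0.31. Since the sets are read by different probe sets, only its change between arrays has a meaning: against the replication average, the mitosis average was lower on these 8 arrays than on wild type arrays 1 and 2. Wild type 10-week array 2 exceeded array 3 by a median of 0.55 in the 29 replication genes and of 1.04 in the 20 mitosis genes. The same difference had a median of 0.46 in the 11 genes with E2F letters in the promoter, of 0.99 in the 14 genes with CHR letters and of 0.75 in the 15 genes with neither. Of the 14 genes with CHR letters 10 are mitosis genes. The others, of replication, gave 0.56 for Cdc45, 1.05 for E2f8, 0.43 for Fen1 and 0.47 for Mcm2. The measured mitosis genes with a window but no CHR letters gave 1.31 for Bub1, 0.75 for Birc5, 1.25 for Cenpe and 1.02 for Nusap1. The part of the letters was not tested.

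**Figure D3:**
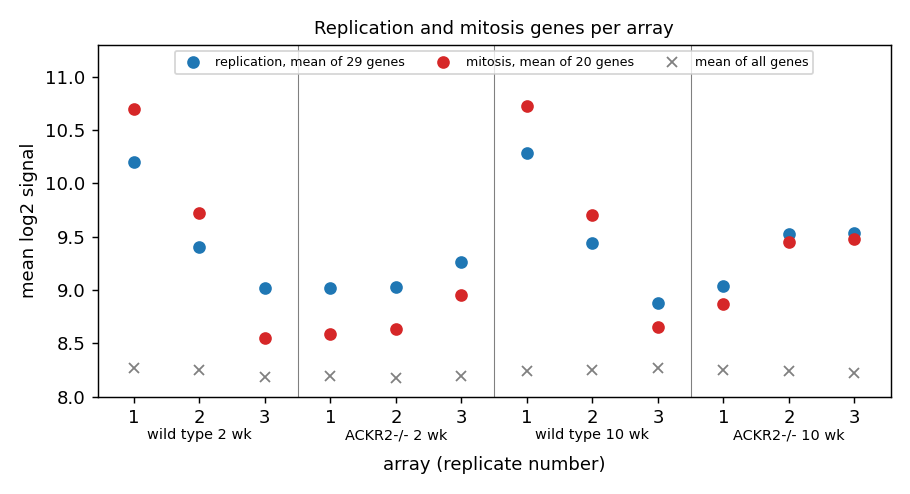
Mean log2 signal of the 29 replication genes (blue) and the 20 mitosis genes (red) on each of the 12 arrays, with the mean of all 19938 genes as grey crosses. The red points lie above the blue ones on wild type arrays 1 and 2 at both weeks and below them on the other 8 arrays, while the crosses stay between 8.17 and 8.27.

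Wild type 2-week array 3 had cell cycle levels close to those of ACKR2-/- 2-week arrays 1 and 2, and less close to array 3. It lay within 0.3 of ACKR2-/- 2-week array 1 for 49 of 49 genes (91.9% of all genes), with a largest difference of 0.28, and within 0.3 of ACKR2-/- array 2 for 48 (93.6%). It lay within 0.3 of ACKR2-/- array 3 for 26 of 49 (68.5%), with a median of -0.27 (-0.41 for mitosis) and Rfc4 the farthest at -1.01. Against wild type 2-week array 2 it was lower by a median of 0.80, with 38 of 49 genes below. The genes were not low alike: it was lower in 20 of 20 mitosis genes. It lay within 0.3 for 10 of 49 genes (52% of all genes), all of replication, among them Mcm2, Mcm3, Mcm5, Cdc6, Prim1 and Tk1. It was higher than array 2 for 11 genes, Cdt1, Mcm4 and Ccne1 among them. The lymphocyte and Y-linked transcripts given above move with these values, and their part was not tested.

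Between 2 and 10 weeks in wild type arrays, no cell cycle gene differed beyond the spread between arrays. Limma called 0 of 49 genes and 0 of 19938 (0% of all genes) after Benjamini-Hochberg adjustment, and at an unadjusted p under 0.05 it found 0 of the 49 and 1326 of all genes. The median difference, 10 minus 2 weeks, was 0.06 (0.04 for replication, 0.07 for mitosis, 0.028 for all genes), and no gene's arrays were separate between the weeks, against 5.29% of all genes higher and 3.45% lower. The lowest p belonged to Birc5 (0.52 ± 0.37 SE, limma adjusted p = 0.784), Rfc4 (-0.66 ± 0.49) and E2f2 (0.30 ± 0.24). The sign of the median depended on the arrays: 0.51 without wild type 2-week array 1 and -0.40 with wild type 10-week array 1 left out. Leaving out wild type 2-week array 3 gave -0.35, with 44 of 49 genes below 0, and leaving out wild type 10-week array 3 gave 0.46.

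At 10 weeks, E2f2 had the lowest p of the 49 genes between the genotypes and did not pass. Its ACKR2-/- arrays at 8.76, 8.17 and 8.1 all lay below its wild type arrays at 9.51, 9.84 and 9.08, which put ACKR2-/- lower by a log2 difference of -1.14 ± 0.24 (SE, n = 3 arrays a group). With a limma p of 0.00072 before and 0.461 after Benjamini-Hochberg adjustment over all genes, it did not pass the threshold of 0.05. E2f2 was the only gene of the 49 whose groups did not overlap, a smaller share than that of all genes (5.98% lower and 8.61% higher). Without ACKR2-/- 10-week array 1, whose E2f2 was nearest to wild type, the fit gave -1.35 ± 0.24 (limma adjusted p = 0.0434), 1 of 129 genes then called (0.647% of all). In the other 10-week arrays fitted alone, a choice made after the values were seen, it was 0.0283 with 506 genes called (2.54%). Since this array lay nearest to wild type in E2f2, leaving it out enlarges the difference by construction. Over single arrays left out, the E2f2 difference ran from -1.35 to -0.96.

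The 3 ACKR2-/- 10-week arrays were themselves unlike in other cells' markers. Monocyte and macrophage markers averaged 10.92, 7.86 and 8.28 on arrays 1, 2 and 3 and neutrophil markers 7.41, 6.84 and 6.74, so that array 1 was the highest in both, as it was for E2f2. Mast cell markers averaged 12.52, 12.24 and 12.15. The neutrophil averages were lower on all of these arrays than on wild type 10-week arrays 1, 2 and 3, at 9.13, 10.15 and 7.69. E2f2 had the same order over those wild type arrays. The monocyte and macrophage averages there, 10.31, 11.66 and 10.92, had another order and overlapped with ACKR2-/-. The part of these cells in the E2f2 difference was not tested.

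For the other 48 genes the genotypes at 10 weeks overlapped. Limma called 0 of 49 genes and 0 of 19938 (0%), with an unadjusted p under 0.05 for 1 of the 49, E2f2, and for 1566 of all genes. Its spread here includes the 2-week arrays. Without wild type 2-week array 3 it also called 0 of 19938 genes (2532 at an unadjusted p under 0.05). With only the 8 arrays high in mast cell markers it called 0 as well (2567). The difference was below 0 for 43 of 49 genes, with a median of -0.30 (-0.17 for replication, -0.43 for mitosis, 0.0076 for all genes). All 20 mitosis genes were below 0, from Birc5 at -0.67 ± 0.37 to Ccna2 at -0.08. After E2f2 the lowest p belonged to Birc5 (limma adjusted p = 0.727) and to Fen1 at -0.54 ± 0.35 (0.792). The sign of this shift depended on 1 array. Wild type 10-week array 1 lay above all ACKR2-/- 10-week arrays for 49 of 49 genes (25.2% of all genes), and wild type array 3 lay below all of them for 37 (30% of all genes). For those 37 genes all ACKR2-/- arrays fell inside the wild type range, against 36.1% of all genes. Without wild type array 1 the median was 0.13 and 36 of 49 genes were above 0, including 12 of 20 mitosis genes, while E2f2 kept a difference of -1.12. Without wild type array 3 the median was -0.66, with 47 of 49 genes below 0.

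**Figure D4:**
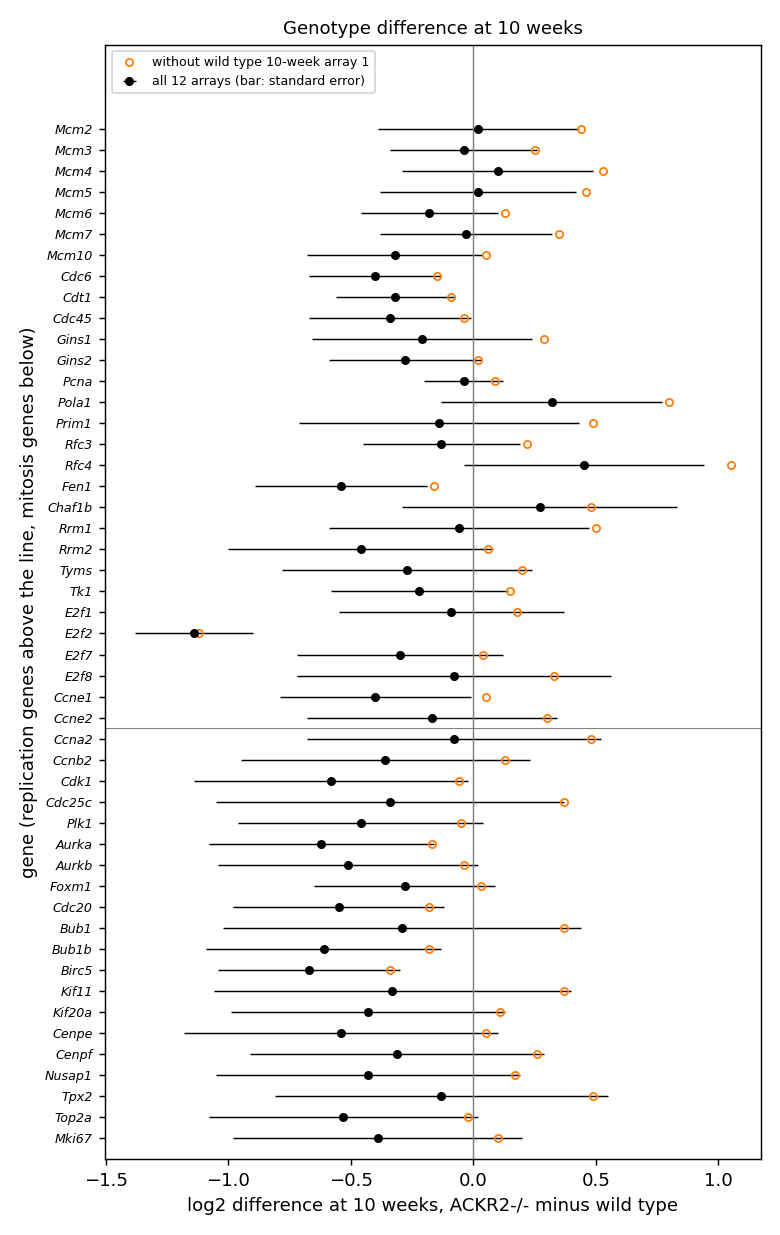
Log2 difference at 10 weeks, ACKR2-/- minus wild type, for each of the 49 genes with all arrays (black, bars are standard errors of the limma fit) and without wild type 10-week array 1 (orange circles). With all arrays 43 genes lie left of 0, without that array 13 do, and E2f2 stays at -1.14 and -1.12.

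Within the ACKR2-/- 10-week group, arrays 2 and 3 had higher cell cycle levels than array 1. Array 1 was the lowest of its group for 48 of 49 genes, all but E2f2, against 39.6% of all genes. Array 2 exceeded it by a median of 0.53 and array 3 by 0.55, while arrays 2 and 3 differed by 0.02, within 0.3 for 47 of 49 genes (89.2% of all genes). The span was widest for Prim1, the DNA primase subunit, at 7.75, 8.91 and 9.1, and for Tpx2, a spindle assembly factor, at 8.64, 9.76 and 9.95. It was narrowest for Pcna and Rfc4. The array lowest in cell cycle genes was thus the one highest in macrophage and neutrophil markers, and the part of those cells was not tested.

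Between 2 and 10 weeks in the ACKR2-/- arrays, Chaf1b rose and Cdt1 fell, and no other gene of the 49 passed. Chaf1b (probe set 10437040) went from 8.81 ± 0.03 to 10.93 ± 0.13 (SD, n = 3), up by 2.12 ± 0.56 (SE; limma adjusted p = 0.0279). Cdt1 (probe set 10576140) went from 9.55 ± 0.18 to 8.69 ± 0.16, a change of -0.87 ± 0.24 (limma adjusted p = 0.0329). These 2 of 49 stand against 16.8% of all genes called, 10.5% higher and 6.33% lower, so the set held a smaller share of calls than the background. E2f2 at -0.77 ± 0.24 (limma adjusted p = 0.0528), E2f1 at 1.32 ± 0.46 (0.0769), Tyms at 1.36 ± 0.51 (0.0996) and E2f8 at 1.60 ± 0.64 (0.12) came next and did not pass. The median difference was 0.38 (0.14 for replication, 0.51 for mitosis, 0.058 for all genes), and all 20 mitosis genes were above 0.

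For 15 genes all ACKR2-/- 10-week arrays lay above all 2-week arrays (26.7% of all genes). These were Cdc45, Gins2, Chaf1b, Rrm2, Tyms, E2f1, E2f7 and E2f8 of replication and Ccnb2, Cdk1, Plk1, Foxm1, Birc5, Nusap1 and Tpx2 of mitosis. Lower on all 10-week arrays were 3 genes, Cdt1, E2f2 and Ccne1 (17.7% of all genes). The 2-week arrays of this comparison are low in mast cell transcripts and Xist and high in lymphocyte and Y-linked transcripts, and the 10-week arrays the reverse, so that time cannot be told apart from what else separates them. Wild type 2-week array 3 had the same low Chaf1b (8.67) and high Cdt1 (9.54) as the ACKR2-/- 2-week arrays, while wild type 2-week array 2 had 11.07 and 8.75.

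Neither call held with 1 ACKR2-/- array fewer. Leaving out any 1 of the 6 ACKR2-/- arrays took the limma adjusted p of Chaf1b to between 0.0557 and 0.0898 and that of Cdt1 to between 0.0651 and 0.102, so that neither passed, while the differences stayed between 2.06 and 2.19 and between -0.95 and -0.77. The count of cell cycle genes past the threshold was then 0, except without ACKR2-/- 10-week array 1. There it was 1, E2f2 at -0.98 (limma adjusted p = 0.0315). Of all 19938 genes, 1514, 1391 and 2655 passed without ACKR2-/- 2-week arrays 1, 2 and 3 in turn. The count over all genes was 2585 without ACKR2-/- 10-week array 1 and 0 without 10-week array 2 or 3. In the fits without 10-week array 2 or 3 the loss of calls was thus not particular to these genes. Without wild type 2-week array 3 the standard error of Chaf1b went from 0.56 to 0.18, and 6 genes passed (25% of all genes): Chaf1b, E2f1, E2f8 and Tyms higher and Cdt1 and E2f2 lower. With only the ACKR2-/- arrays fitted, 11 passed (25.1% of all genes): Chaf1b, E2f8, E2f1, Tyms, Foxm1, E2f7, Rrm2 and Ccnb2 higher and Cdt1, Ccne1 and E2f2 lower.

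**Figure D5:**
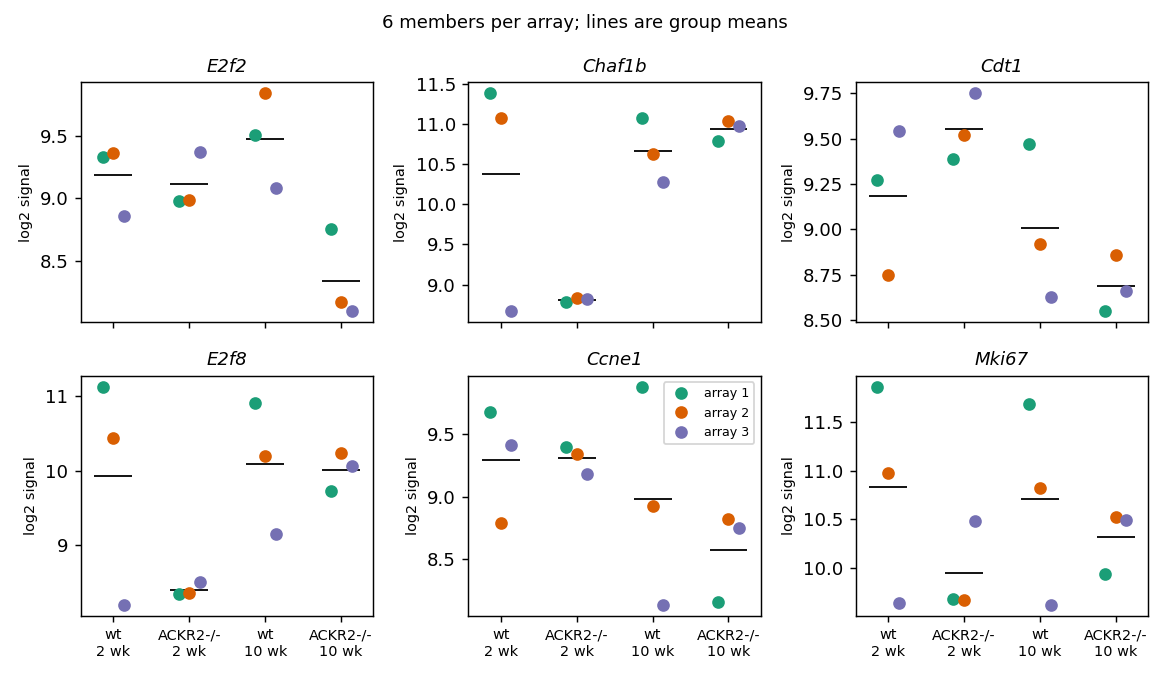
Log2 signal on each of the 12 arrays for E2f2, Chaf1b, Cdt1, E2f8, Ccne1 and Mki67, coloured by replicate number, with black lines at the group means and a separate y axis for each gene. E2f2 is lowest on the ACKR2-/- 10-week arrays, and Chaf1b and E2f8 are low on wild type 2-week array 3 and the ACKR2-/- 2-week arrays. Mki67 follows the replicate number in wild type, where array 3 at 2 weeks is low in mast cell markers.

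At 2 weeks the ACKR2-/- arrays had lower cell cycle averages than the wild type arrays, without any gene passing. Limma called 0 of 49 and 0 of 19938 genes (0%), with an unadjusted p under 0.05 for 4 of the 49 and 3480 of all genes. The median difference was -0.69 (-0.31 for replication, -0.92 for mitosis, -0.024 for all genes), and 47 of 49 genes were below 0, Cdt1 and Ccne1 being the exceptions. The lowest p belonged to Chaf1b (-1.56 ± 0.56, limma adjusted p = 0.225), E2f8 (-1.51 ± 0.64) and Tyms (-1.20 ± 0.51). Only for Birc5 were the groups separate, at 8.41, 8.41 and 8.1 on the ACKR2-/- arrays against 9.74, 8.75 and 8.43, where 8.6% of all genes were separate and lower and 4.97% separate and higher. Without wild type 2-week array 3 the median was -1.14 and 10 genes passed, all lower (23.8% of all genes). They were Chaf1b, E2f8, E2f1, E2f7 and Tyms of replication and Foxm1, Ccnb2, Plk1, Cdk1 and Nusap1 of mitosis. With array weights, which give less weight to arrays far from their group, 35 passed, 34 of them lower (46.1% of all genes). Without wild type 2-week array 1 the median was -0.23. The comparison without array 3 sets 2 arrays high in mast cell transcripts against 3 that are low in them, and genotype cannot be told apart from that.

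The change over time did not differ between the genotypes beyond the spread in the test of the difference itself. Limma called 0 of 49 genes and 0 of 19938 (0%) for the interaction of genotype and week, with an unadjusted p under 0.05 for 2 of the 49 and 2271 of all genes. E2f2 had the lowest p at -1.06 ± 0.34 (limma adjusted p = 0.424), followed by Chaf1b at 1.83 ± 0.79 (0.427) and Cdt1 at -0.69 ± 0.34 (0.462). The median was 0.43 (0.18 for replication, 0.49 for mitosis, 0.023 for all genes). Without wild type 2-week array 3 it was 0.81, and Chaf1b (2.69 ± 0.27), E2f8 (2.30 ± 0.55) and E2f1 (1.52 ± 0.38) passed, with 15.7% of all genes called. Leaving out wild type 10-week array 1 gave a median of 0.85, leaving out wild type 2-week array 1 gave -0.06 and leaving out wild type 10-week array 3 gave -0.05. The interaction rests on the ACKR2-/- 2-week arrays, which are low in mast cell transcripts and Xist and high in lymphocyte and Y-linked transcripts. A part of genotype in the change over time cannot be told apart from that.

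Other cell cycle genes were described from 4 further lists. In wild type over time, between the genotypes at 10 weeks and between the genotypes at 2 weeks, limma called none of 38 other replication genes, 45 other mitosis genes, 15 cell cycle inhibitors and pocket proteins, and 18 G1 cyclins and their drivers. Their medians at 10 weeks, ACKR2-/- minus wild type, were -0.06, -0.39, -0.08 and 0.03, so that the other mitosis genes were shifted like the 20 described above (43 of 45 below 0). On the wild type 10-week arrays the other mitosis genes averaged 10.11, 9.05 and 8.29, with array 1 above 2 above 3 for 44 of 45 (23.4% of all genes). Their averages on the ACKR2-/- 10-week arrays, 8.48, 8.98 and 8.98, lay inside this wild type range, below arrays 1 and 2 and above array 3. The inhibitors averaged 10.10, 9.85 and 9.90 and went both ways, with that order for 5 of 15, among them Cdkn2c, an inhibitor of Cdk4 and Cdk6, at 9.51, 8.18 and 7.73 and Rb1, the retinoblastoma protein, at 12.09, 11.39 and 11.15. Btg2, an antiproliferative gene of the p53 and immediate early response, read 11.83, 12.36 and 12.61 on the wild type and 12.45, 8.70 and 9.95 on the ACKR2-/- arrays at 10 weeks, a difference of -1.90 ± 0.74 that did not pass (limma adjusted p = 0.578). The genotypes did not overlap for 3 of the 15 inhibitors, 2 lower (5.98% of all genes) and 1 higher (8.61%). Cdkn2d, another Cdk4 and Cdk6 inhibitor, was lower on all ACKR2-/- arrays at 10.10, 10.05 and 10.19 against 10.29, 10.65 and 10.64 (-0.41 ± 0.15, limma adjusted p = 0.544). Rbl2, the pocket protein p130 of the DREAM complex, was higher at 11.38, 11.22 and 11.17 against 10.94, 10.75 and 11.11 (0.32 ± 0.15, limma adjusted p = 0.639).

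Between 2 and 10 weeks in the ACKR2-/- arrays, 1 of 38 other replication genes rose and none fell, and 1 of 45 other mitosis genes fell and none rose. Of 15 inhibitors 1 rose and 1 fell, and of 18 G1 genes 2 rose and 2 fell, where 10.5% of all genes rose and 6.33% fell. The first was Rfc2, a clamp loader subunit, at 9.59, 9.63 and 10.20 against 11.63, 11.45 and 11.49 (1.72 ± 0.41, limma adjusted p = 0.0206). The second was Smc4, a condensin subunit, which fell by 1.12 (limma adjusted p = 0.0363). Among the inhibitors Rbl2 rose by 0.78 ± 0.15 (limma adjusted p = 0.0138), and Btg2 fell by 2.42 ± 0.74 (limma adjusted p = 0.0486). Btg2 read 12.83, 12.79 and 12.73 at 2 weeks and 12.45, 8.70 and 9.95 at 10 weeks, so its fall lay mainly on 10-week arrays 2 and 3. Among the G1 genes Tfdp1 and Tfdp2, the partners of E2F proteins, rose by 0.55 and 0.60, while Cdc25b, a Cdk phosphatase, fell by 1.55 and Ccnd1, cyclin D1, by 2.21. Ccnd1 read 10.79, 10.73 and 8.97 on the ACKR2-/- 2-week arrays, 10.64 on wild type 2-week array 3 and at most 8.32 on the other 8 arrays. Without ACKR2-/- 10-week array 2 or array 3, limma called 0 of 19938 genes in this comparison (4783 and 4829 at an unadjusted p under 0.05), so that all 8 of these genes lost their calls. Rbl2 and Cdc25b kept theirs with any other array left out. Rfc2 also lost its call without ACKR2-/- 2-week array 1 or 2 or 10-week array 1, Smc4 without these or wild type 10-week array 2, and Ccnd1 without these or any wild type 10-week array. Btg2, Tfdp1 and Tfdp2 each lost theirs in 10 of the 12 fits with 1 array left out. The same limit on time holds for all of these.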

How the data were processed

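The deposited table holds log2 values of 35399 probe sets on 12 arrays, made by the authors by RMA. The submitters' processing notes name Partek 6.5 for this. The method subtracts background, makes the arrays' distributions alike and summarises each probe set, so a shift shared by most genes would not be seen. Values ran from 2.66 to 14.91 with array medians of 7.76 to 7.90. No detection call, scanner file, slide or scan batch was used here, and the genome build behind the probe sets is not given in the sources used here. Signal over background is therefore unknown, and the number of arrays limits the precision. A platform annotation gave 1 symbol to 21789 probe sets and several to 1621, which were not named. For the 999 genes with several probe sets the one with the highest mean was kept, leaving 19938 genes.

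Limma 3.58.1 (R 4.3.3) fitted 1 mean for each group over all 12 arrays, with 8 residual and 2.39 prior degrees of freedom. P-values were adjusted by Benjamini-Hochberg over all 19938 genes of a contrast, and an adjusted p under 0.05 was counted as changed. The script was tested on simulated data. Errors are limma's standard errors or, for group means, standard deviations. The members and the further lists, of which 175 of 186 genes were measured, were chosen with earlier results of these data known. Any of the 50 genes may be named. Values on every array are given for 15 of 16 well-known members (Ccnb1 being unmeasured), for the 3 with the lowest p in each contrast and for those with the largest and smallest range, and those of Prim1, Tpx2, Cdkn2c, Rb1 and Rbl2 were added after their values were seen. Pairing by replicate number was checked through correlations of the arrays' deviations from group means. These were 0.166 to 0.359 for wild type arrays of the same number at 2 and 10 weeks, and at most 0.0232 for different numbers there. Same numbers in the other pairs of groups gave -0.308 to 0.0621. Different numbers in those pairs reached 0.287, for wild type array 1 with ACKR2-/- array 3 at 10 weeks. Same numbers thus stood out only between the wild type weeks. Since different numbers reached similar values elsewhere, the check cannot show that these arrays are paired. Alternatives were other sets of arrays, array weights, another choice of probe set, a filter on dim genes, centring of the arrays and the replicate number as a block. Promoter windows are RefSeq's for GRCm38.p6.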

Additional observations from a re-analysis of the deposited data

How the results depend on the processing

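Counts of calls changed with the setting for ACKR2-/- over time, the genotypes at 2 weeks and the interaction. For ACKR2-/- at 10 against 2 weeks, 2 genes passed with all arrays (16.8% of all genes), 11 with only the groups compared (25.1%) and 23 with array weights (47.9%). With a replicate block over all 12 arrays 1 passed (2897 of all 19938 genes), and Cdt1 had a limma adjusted p of 0.0573. Leaving out single arrays gave 0 to 6 (0 to 4994 of all genes). For the genotypes at 2 weeks 0 passed with all arrays and 35 with array weights (46.1% of all genes). With single arrays left out 0 to 10 passed (0 to 4738 of all genes). For the interaction 0 passed, and 4 with array weights (Ccnb2, Chaf1b, E2f1 and E2f8, with 20.7% of all genes called). With single arrays left out it was 0 to 3 (0 to 3138 of all genes). The median interaction was 0.43 with all arrays, 1.15 with array weights and -0.06 to 0.85 with single arrays left out. For the genotypes at 10 weeks 0 passed, with 0 to 1 over single arrays left out (0 to 129 of all genes). The 1 was E2f2, also in the 10-week arrays alone without ACKR2-/- array 1, a setting added after seeing the data. The median was -0.30, ran from -0.66 to 0.13 over single arrays left out and was 0.12 with array weights. For wild type weeks 0 passed under each alternative, the median of 0.06 ran from -0.40 to 0.51 over single arrays left out and was -0.53 with array weights, and E2f2 went from 0.30 to -0.12 with array weights. The cause was not tested. The replicate block in the wild type arrays, where alone same numbers stood out in the pairing check, gave a median of 0.06 and 0 calls. The medians over single arrays left out ran from 0.29 to 0.55 for ACKR2-/- over time and from -1.14 to -0.23 for the genotypes at 2 weeks. The choice of probe set, the filter on dim genes and the centring of arrays changed the count of calls by at most 1 in each contrast. Without scanner files, whether any gene lies above background is unknown.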
